A study of Arabidopsis thaliana with 24 samples.

Results

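Shoots of Arabidopsis thaliana that had been in mannitol for 24 h were set against shoots that had been in it for 12 h. The comparison rests on the 4 shoot arrays of those times, 2 per time, out of 24 in the series, and on the signal of each probe set as log2(signal + 8). All plants were of accession Col-0, were 16 days old at the start and were grown on rafts over Murashige and Skoog medium, to which mannitol was added to 300 mM. Mannitol is a sugar alcohol that lowers the water potential around the roots, so that water is harder to take up. Treatment began 3 h into a light period of 16 h. The 24 h shoots were therefore harvested 3 h after lights came on the next day, and the 12 h shoots 15 h after lights on, near the end of the day. Time of day and time in mannitol cannot be told apart between these groups, and untreated plants were not analysed here. Nothing in the labels says that the 2 samples of a group came from separate cultures. Each p-value rests on the spread within all 12 groups of the series, roots included, and that spread may be technical.

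Plant transcripts follow the day as well as stress. The circadian clock keeps sets of genes high in the morning and others high in the evening, and starch laid down in leaves by day is broken down by night. Water deficit raises abscisic acid (ABA), which switches on protective proteins such as dehydrins, and it slows the making of ribosomes and of new cell wall.

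Of 16814 probe sets tested, 2572 (15.3%) passed an adjusted p of 0.05 between 24 h and 12 h (limma with Benjamini-Hochberg adjustment over all tested). At 24 h 940 (5.59%) were higher and 1632 (9.71%) were lower, and of these 362 (2.15%) and 420 (2.5%) differed at least 2-fold. The median change over all tested probe sets was -0.06 in log2. The balance depended on the scaling of the arrays: with each array brought to a common median signal, 1487 were higher and 1021 lower at 24 h, and the median change was 0.06. Quantile normalization gave 873 higher and 1209 lower. The number that passed also leaned on single arrays: it was 1258 without the first 24 h array, 1441 without the first 12 h array and 1683 without the other 12 h array. With these 4 arrays alone, whose fit has fewer degrees of freedom, 742 passed. In roots over the same interval 267 (1.59%) passed, 161 higher (0.958%) and 106 lower (0.63%) at 24 h, of which 93 (0.553%) and 47 (0.28%) differed at least 2-fold.

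Pearson's r between the 2 arrays of a group, taken over probe sets, was 0.974 at 24 h and 0.979 at 12 h. The median signal was 31.4 and 35.6 at 24 h, against 36.7 and 37.4 at 12 h. The ratio of 3′ to 5′ signal of the first actin control design, a sign of RNA quality, was 14.4 and 18.9 at 24 h, against 10.6 and 14.9 at 12 h. The other actin design gave ratios of 2.6 and 2.54 at 24 h, against 2.18 and 2.47 at 12 h. The GAPDH ratios overlapped, at 1.42 and 1.73 at 24 h, against 1.6 and 1.43 at 12 h. The part of RNA quality in the results was not tested. The 5 green tissue markers on the array summed to 10624 and 13232 at 24 h, against 9604 and 9615 at 12 h. In roots they summed to between 517 and 810.2 at these times. The 5 root markers summed to 373 and 372 in shoots at 24 h, against 225 and 335 at 12 h, and to between 4344 and 4933 in roots. Nearly all of the root marker signal in shoots came from PYK10, a beta-glucosidase of roots and hypocotyls, at 364 and 357 at 24 h and 213 and 323 at 12 h, and 0 of the 5 root markers passed the test in shoots. PYK10 was higher at 24 h without the second 12 h array (0.74, adjusted p = 0.0156, limma) and with arrays at a common median (0.59, adjusted p = 0.0345). Of the 5 green markers 2 were higher at 24 h and 0 lower, against 5.59% higher and 9.71% lower over all probe sets. Under quantile normalization 2 were higher and 1 was lower. The part of cell makeup in the results was not tested. In whole shoots, fewer cells of a type and less RNA per cell cannot be told apart.

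The genes named as largest falls and rises were taken only from those whose arrays did not overlap between the times, which held for 9111 of the 16814 tested probe sets. AT1G11210 had signals of 6.92 and 6.15 at 24 h, against 214 and 236 at 12 h, a fall of 4.0 ± 0.23 (log2, SE; adjusted p = 2.58e-09, limma). COR27, a cold-regulated gene that acts between the clock and light signalling, had 3.72 and 3.98 at 24 h, against 150.2 and 148 at 12 h, and fell by 3.73 ± 0.25 (adjusted p = 1.43e-08, limma). Between them in size lay AT2G23910, with a change of -3.75. The next were AT4G30650 with -3.29, AT5G62720 with -3.18, AT4G33980 with -3.08, AT4G34950 with -3.07 and AT4G32340 with -3.01. Then came AT4G16146 with -2.88, AT1G51090 with -2.64 and AT2G43550 with -2.51. Of the 15 largest falls the rest had gene symbols. The serine carboxypeptidase-like scpl35 had 25.6 and 41.8 at 24 h, against 259 and 250.1 at 12 h, a change of -2.68. The methionine aminopeptidase MAP1C, which takes the first methionine off new proteins, had 25.4 and 23.55 at 24 h, against 190.0 and 186 at 12 h, a change of -2.59. CHL, a chloroplast lipocalin that protects membrane lipids, had 46.6 and 70.01 at 24 h, against 385 and 373 at 12 h, a change of -2.57. COR15B, a protective protein of chloroplasts, is described with the ABA genes.

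The largest rise was that of AT2G15020, with 349 and 382 at 24 h, against 9.60 and 4.99 at 12 h, a change of 4.63 ± 0.22 (log2, SE; adjusted p = 2.62e-10, limma). BSMT1, a methyltransferase that makes the volatile esters methyl salicylate and methyl benzoate, had 758 and 346 at 24 h, against 17.2 and 39.5 at 12 h, and rose by 3.91 ± 0.495 (adjusted p = 3e-05, limma). It was scarcely measured in shoots before 12 h, where the highest array read 24.3. AFR, an F-box protein needed for responses to far-red light through phytochrome A, had 1119 and 784 at 24 h, against 184 and 197 at 12 h, a change of 2.25 ± 0.16. OCT1, an organic cation and carnitine transporter, had 150.1 and 49.6 at 24 h, against 6.99 and 10.98 at 12 h, a change of 2.5. The size of the OCT1 rise rested on the first 24 h array, without which it was 1.77. The other rises among the 15 largest were AT3G01060 with 3.29, AT5G35970 with 2.75, AT1G64500 with 2.58, AT2G41250 with 2.55, AT3G03620 with 2.28, AT5G04380 with 2.25 and AT2G17680 with 2.25. Smaller ones were AT5G48570 with 2.19, AT1G66130 with 2.11, AT5G22390 with 2.06 and AT2G34610 with 2.03. Without the first 24 h array the rise was 1.62 for AT3G03620 and 1.31 for AT2G34610, and without the other 24 h array it was 3.23 for OCT1, 2.95 for AT3G03620 and 2.75 for AT2G34610.

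**Figure D1:**
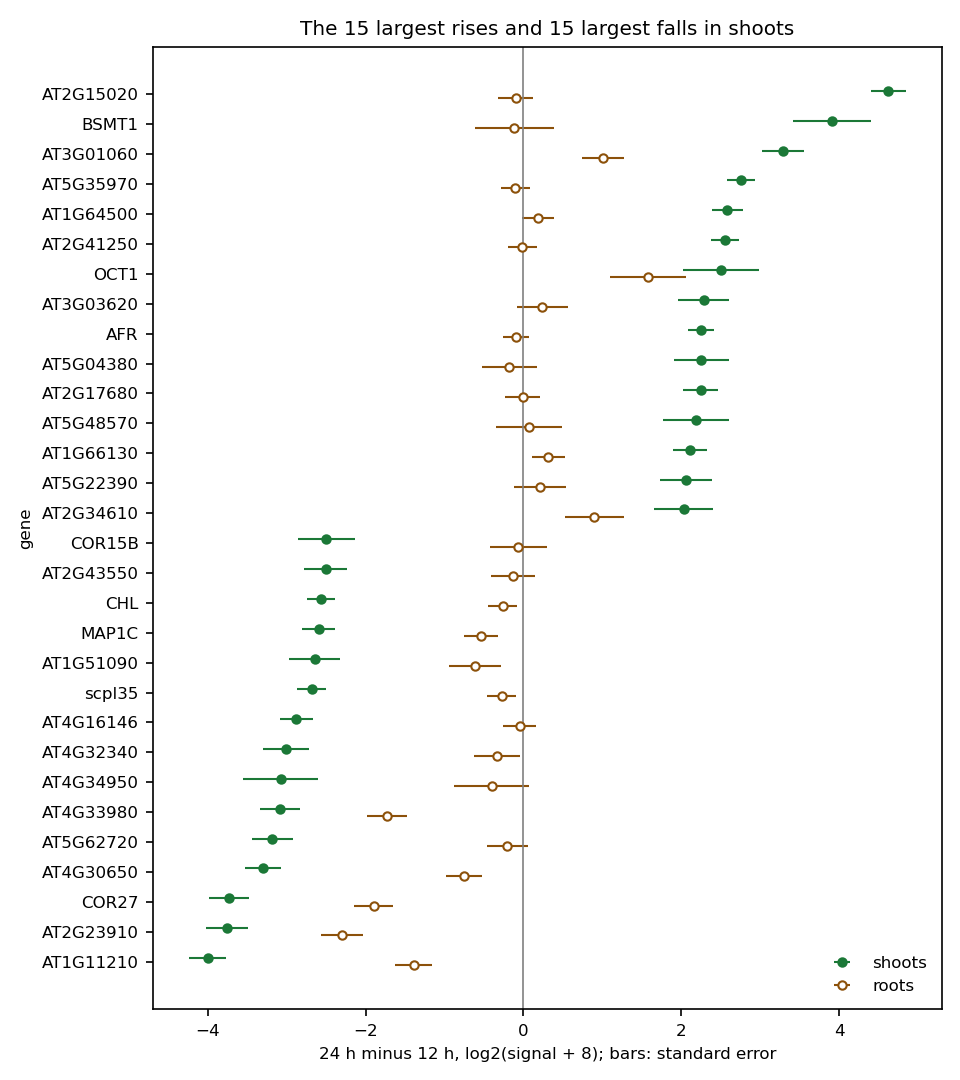
Each row is a gene and the horizontal axis is the 24 h minus 12 h change in log2(signal + 8), with bars for the standard error; filled points are shoots and open points are roots (2 arrays per tissue and time). Shoot changes run between 4.63 for AT2G15020 and -4.0 for AT1G11210, and 4 of the 30 genes, AT1G11210, AT2G23910, COR27 and AT4G33980, also passed in roots.

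Whether these genes had moved earlier was read from shoots at 6 h against 0.5 h, which share no array with the 24 h and 12 h groups. The 6 h shoots were harvested 9 h after lights on and the 0.5 h shoots 3.5 h after. Time of day and time in mannitol cannot be told apart over this step either. Over that step 8094 probe sets (48.1%) passed. At least 2-fold higher at 6 h and past an adjusted p of 0.05 were 1590 probe sets (9.46%), and lower by the same measure were 1698 (10.1%). Of the 1590 that were higher at 6 h, 311 were lower at 24 h than at 12 h, which was 19.6% of them and 19.1% of all 1632 that fell. Another 140 of the 1590 were higher at 24 h than at 12 h, 8.81% of them and 14.9% of all 940 that rose. Of the 1698 that were lower at 6 h, 159 rose between 12 h and 24 h (9.36% of them, 16.9% of all that rose), and 249 fell (14.7% of them, 15.3% of all that fell). Both groups held more changes each way than the 5.59% higher and 9.71% lower over all tested probe sets. Most early movers did not pass between 12 h and 24 h: 1139 of the 1590 (71.6%) and 1290 of the 1698 (76.0%). A further 8033 probe sets had not passed at 6 h and had moved by less than 0.5 in log2. Of these 322 rose (4.01%) and 517 fell (6.44%), both below the shares over all tested probe sets. The 2 comparisons share no array, but they came from the same fit and used the same estimate of spread for each probe set. A probe set of small spread passes more readily in both. The higher shares among early movers and the lower shares among unmoved probe sets therefore cannot be told apart from this link.

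The 5 largest falls among genes that were higher at 6 h than at 0.5 h were AT1G11210, AT2G23910, COR27, AT4G30650 and AT5G62720. COR27 stood at 0.939 and 0.873 at 0.5 h, 187 and 168 at 6 h, 150.2 and 148 at 12 h and 3.72 and 3.98 at 24 h. AT4G30650 peaked at 6 h with 1226 and 1348, after 28.2 and 11.6 at 0.5 h, and stood at 392 and 365 at 12 h and 30.2 and 32.6 at 24 h. In both, the 24 h arrays stood far below the 6 h and 12 h arrays. They read above the 0.5 h arrays, but by little that can be relied on. COR27 at 0.5 h and 24 h lay below the 20th percentile of signal of each array (5.08 to 8.07), where values are near the floor. In AT4G30650 the 0.5 h arrays differed more from each other than the higher of them did from the 24 h arrays. AT5G62720 went below its starting signal, with 36.1 and 38.8 at 24 h, against 171 and 218 at 0.5 h. AT2G23910 was still building at 6 h, with 47.2 and 82.02, and was highest at 12 h. The 24 h against 12 h change and any statement on 12 h or 24 h against 0.5 h share arrays, so these courses are given as values only.

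Among genes that were lower at 6 h than at 0.5 h, the 5 largest rises were those of AT3G01060, AT1G64500, AT2G41250, AT5G22390 and AT3G15310. AT3G01060 had 562 and 588 at 0.5 h, 114 and 153 at 6 h, 34.1 and 37.8 at 12 h and 418 and 422 at 24 h. AT1G64500 ended above where it began, with 700.3 and 656 at 24 h, against 271 and 276 at 0.5 h, whereas AT2G41250 ended below, with 221 and 293 at 24 h, against 478 and 571 at 0.5 h. The return was thus of unlike extent from gene to gene. The 24 h and 0.5 h shoots were harvested at nearly the same time of day, 3 h and 3.5 h after lights on. In a return, up or down, a daily course and a passing response to mannitol therefore cannot be told apart. HYH, a bZIP transcription factor close to HY5 that acts in light signalling, followed the same course: 98.4 and 84.8 at 0.5 h, 20.8 and 14.7 at 6 h, 13.9 and 24.8 at 12 h and 62.6 and 89.02 at 24 h. Its rise from 12 h was 1.63 ± 0.23 (adjusted p = 8.02e-05, limma), and it was the 1 gene tested of the 14 on the light signalling list.

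Among genes that were higher at 6 h, the 5 largest rises by 24 h were those of AT5G44310, AT1G62510, CYP71B26, SWEET13 and AT4G31830. AT4G31830 was higher at each of 3 times, with 14.2 and 19.8 at 6 h, 220.2 and 134 at 12 h and 744 and 340.2 at 24 h. AT5G44310 had 8.13 and 22.95, then 36.7 and 17.2, then 189.5 and 57.1 at those times, its 6 h and 12 h arrays overlapping. CYP71B26, a cytochrome P450, had instead dipped at 12 h: it had 908 and 943 at 6 h, 235 and 245 at 12 h and 785 and 754 at 24 h. AT1G62510 dipped likewise, with 4043 and 3134, 1298 and 1364 and 4306 and 4197 at those times. The rise by 24 h was 1.76 in AT5G44310 and 1.51 in AT4G31830, and neither passed without the first 24 h array (0.95 in each, adjusted p = 0.134 and 0.186, limma) or without the second 12 h array (1.34 and 1.16, adjusted p = 0.0819 and 0.116). The rise of 1.67 in AT1G62510 did not pass without the first 12 h array (adjusted p = 0.0519) or the first 24 h array (adjusted p = 0.0541, limma). CYP71B26 rose by 1.65 ± 0.18 (adjusted p = 6.13e-06, limma). Among genes that were lower at 6 h, the largest falls by 24 h were AT4G24780 with -2.19, AT1G04680 with -1.997, AT3G15630 with -1.81, AT3G23760 with -1.54 and AT3G22210 with -1.36. AT3G22210 was lower at each later time of these, with 1111 and 1077 at 0.5 h, 203 and 215 at 6 h, 132 and 147 at 12 h and 39.95 and 60.2 at 24 h.

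Late genes, which had not moved by 6 h, included the 2 largest rises, AT2G15020 and BSMT1, then AT3G03620, AFR and AT2G17680. AT2G17680 stayed between 7.49 and 20.7 on all shoot arrays to 12 h and had 145 and 82.6 at 24 h. AT2G15020 had been as high once before, with 347 and 419.9 at 1 h, so not moving between 0.5 h and 6 h does not mean that a gene was still. The largest late falls were those of MAP1C, AT5G02160, PDF1.2, AT5G66530 and GH9C2. MAP1C had stood between 134 and 270.2 on all 10 shoot arrays up to 12 h, and had 25.4 and 23.55 at 24 h. PDF1.2, a plant defensin of the jasmonate and ethylene response, had 43.1 and 92.1 at 24 h, against 179 and 432 at 12 h. Its fall of 2.005 ± 0.52 did not pass without the first 24 h array (-1.52, adjusted p = 0.156) or the second 12 h array (-1.39, adjusted p = 0.16, limma). GH9C2, an endoglucanase of the cell wall, had 32.7 and 43.95 at 24 h, against 181 and 116 at 12 h, and fell by 1.73 ± 0.25.

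**Figure D2:**
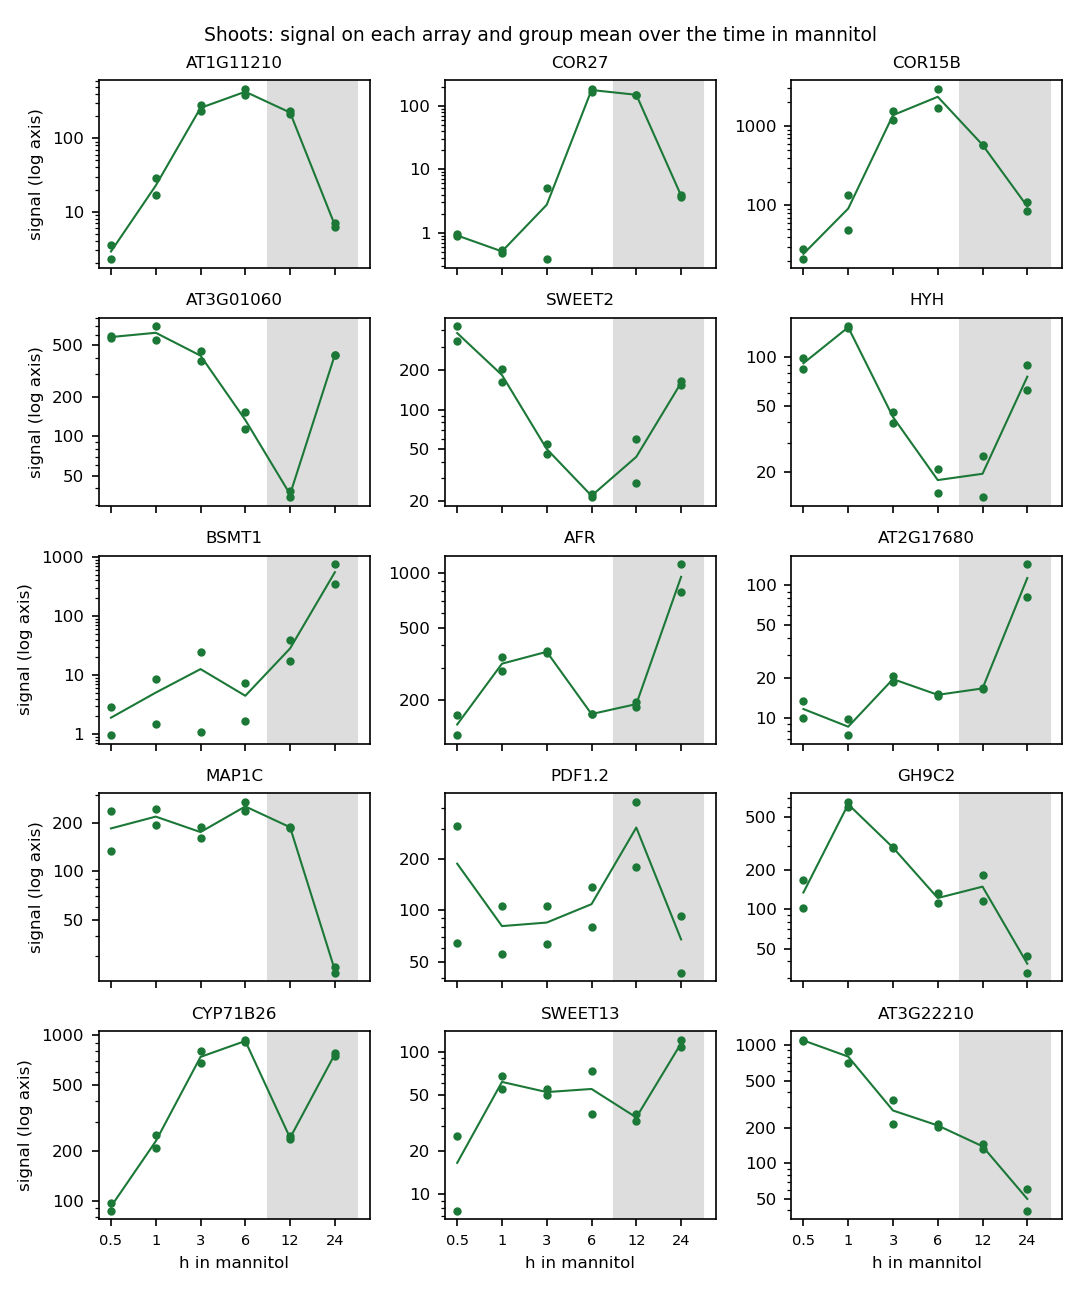
Each panel gives a gene's signal in shoots on a log axis against the time in mannitol (0.5 to 24 h, evenly spaced), with 2 points per time for the arrays, a line through their means, and the 12 h and 24 h groups shaded. The top row holds genes that came back down (COR27: 3.72 and 3.98 at 24 h) and the second row genes that came back up. The third holds late rises and the fourth late falls. The bottom row holds genes that changed after 12 h in the direction of their 6 h against 0.5 h change. Of these, CYP71B26 had dipped at 12 h.

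All 3 tested genes of the 15 listed as evening-phased clock genes fell (0 higher and 3 lower; over all probe sets 5.59% and 9.71%). Besides COR27, AT4G33980 had 3.26 and 4.19 at 24 h, against 99.9 and 83.1 at 12 h, a change of -3.08 ± 0.25. GI, the clock protein GIGANTEA that links the clock to flowering, had 73.6 and 74.3 at 24 h, against 105 and 95.8 at 12 h, a small fall of 0.404 ± 0.13 (adjusted p = 0.0441, limma). GI had peaked at 6 h with 555 and 533. The GI call did not hold when any 1 of the 4 arrays was left out (adjusted p = 0.0812 to 0.228), and 2 of the 3 passed with the arrays brought to a common median. The 1 tested gene of 15 on the morning-phased list, AT5G52660, had 171 and 163 at 24 h, against 159 and 154 at 12 h, and did not pass (adjusted p = 0.833, limma).

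Both tested genes of 15 for starch breakdown and export were lower on the second day. Over all probe sets 5.59% were higher and 9.71% lower. DPE1, the plastid disproportionating enzyme that works on the malto-oligosaccharides released from starch, had 36.9 and 56.4 at 24 h, against 255 and 208 at 12 h, a change of -2.15 ± 0.16 (adjusted p = 3.81e-08, limma). PWD, the phosphoglucan, water dikinase that phosphorylates the starch granule and so opens it to breakdown, had 244 and 296 at 24 h, against 1077 and 943 at 12 h, a change of -1.87 ± 0.15 (adjusted p = 1.03e-07, limma). In each gene both 12 h arrays lay above both 24 h arrays, which adds little to the calls. The arrays did not overlap in 2567 of the 2572 probe sets that passed, and in 9111 of the 16814 tested. Transcripts of this pathway are known to peak late in the day in unstressed leaves. Of 3 starch synthesis genes tested of 16, APL4, a large subunit of ADP-glucose pyrophosphorylase, had 860.2 and 674 at 24 h, against 495 and 399 at 12 h, and rose by 0.76 ± 0.22 (adjusted p = 0.0242, limma). Its mean was higher at each sampling after 12.04 and 12.3 at 0.5 h. The APL4 call did not hold without the first 24 h array (0.59, adjusted p = 0.218) or the second 12 h array (0.61, adjusted p = 0.176, limma). APL3, another large subunit, had 444 and 462 at 24 h, against 588 and 453 at 12 h, and SBE2.2, a starch branching enzyme, had 383 and 415 at 24 h, against 399 and 489.5 at 12 h, and neither passed.

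Of 11 photosynthesis genes tested of 47 listed, 2 rose, 1 fell and 8 did not pass, against 5.59% higher and 9.71% lower over all probe sets, so the share that fell was near that of all. Their median change was 0.09. PSBY, a photosystem II protein, was higher without the first 24 h array (0.71, adjusted p = 0.0204, limma). The light-harvesting protein CP29 is encoded by a family of LHCB4 genes, whose 3 tested members are given in turn. LHCB4.2 had 2013 and 2843 at 24 h, against 1134 and 973 at 12 h, a rise of 1.18 ± 0.19 (adjusted p = 0.000305, limma). LHCB4.3 had 161 and 197 at 24 h, against 401 and 460.3 at 12 h, a fall of 1.23 ± 0.24 (adjusted p = 0.00208, limma). LHCB4.1 had 1921 and 2613 at 24 h, against 2959.8 and 3144 at 12 h, and did not pass (adjusted p = 0.0711), though it did without the second 24 h array (-0.67, adjusted p = 0.0195, limma). RCA, Rubisco activase, had 3854 and 4272 at 24 h, against 2494 and 2707 at 12 h, a rise of 0.64 ± 0.15 that did not pass without the first 12 h array (0.58, adjusted p = 0.0617, limma). LHCB4.2 and RCA were both lower at 12 h than at any other time. PORB, an oxidoreductase that makes chlorophyllide in the light, fell, with 30.03 and 70.1 at 24 h, against 190.2 and 208 at 12 h, a change of -1.92 ± 0.24 (adjusted p = 2.63e-05, limma). It had been highest at 6 h, with 1598 and 1493, and was the 1 gene tested of 11 for chlorophyll metabolism. Genes encoded in the chloroplast genome, a group formed after the values were seen, gave no call: 0 of 69 passed, against 15.3% of all probe sets. Their median change was -0.02, with a range between -0.44 and 0.65. Without the second 12 h array 6 were higher, without the second 24 h array 1, and with arrays at a common median 3, while 1 was lower under quantile normalization. At an earlier step 28 of the 69 had been lower at 6 h than at 0.5 h, against 25.4% of all probe sets.

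**Figure D3:**
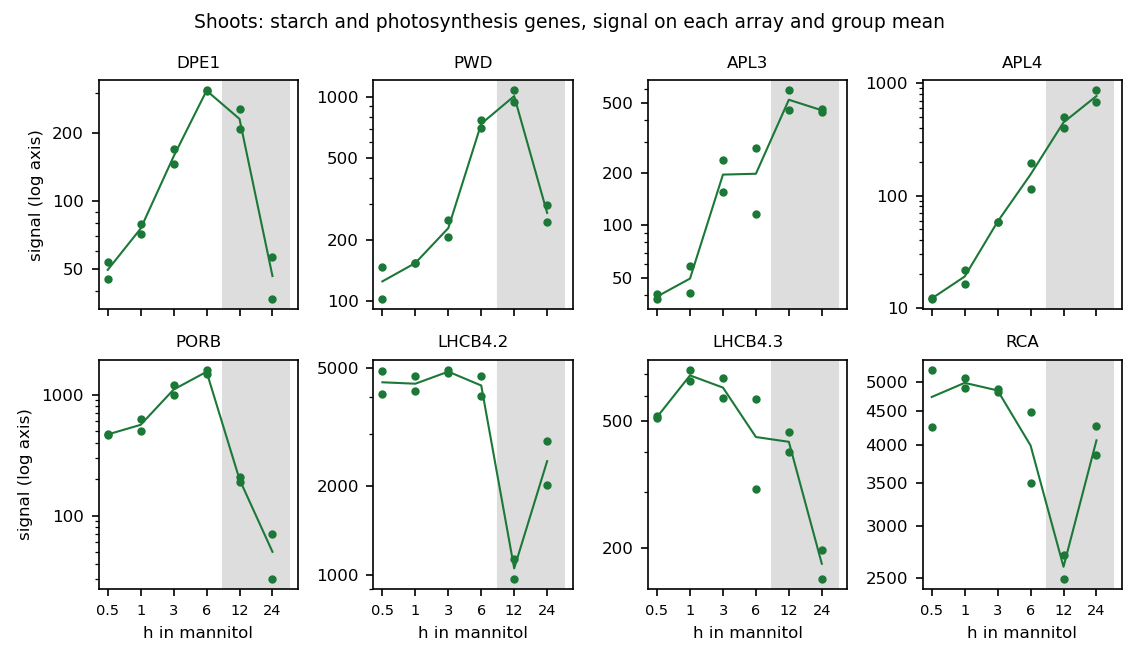
Signal in shoots on a log axis against time in mannitol (0.5 to 24 h, evenly spaced), 2 points per time for the arrays and a line through their means, with the 12 h and 24 h groups shaded. DPE1, PWD, PORB and LHCB4.3 were lower at 24 h than at 12 h, APL4, LHCB4.2 and RCA were higher, and APL3 did not pass.

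Of 7 ABA and dehydration genes tested of 22 listed, all 7 had risen by 6 h against 0.5 h, by a median of 6.46 in log2, where 22.8% of all probe sets were higher. Between 12 h and 24 h 0 passed upward and 1 downward, a share near that of all probe sets (15.3% either way), with a median of 0.15. COR15B had 110.2 and 84.3 at 24 h, against 583 and 578 at 12 h, and fell by 2.495 ± 0.36 (adjusted p = 0.00013, limma), after 2977 and 1710.2 at 6 h. COR15A, its close relative, which shields chloroplast membranes during drying and freezing, had 3498 and 2528 at 24 h, against 4283 and 4416 at 12 h, and did not pass (adjusted p = 0.537). The dehydrin COR47 had 5154 and 3595 at 24 h, against 4115 and 4386 at 12 h. The dehydrin LTI30 had 5236 and 4051 at 24 h, against 3125 and 2639 at 12 h. The arrays of the 2 times overlapped in COR47 and did not in COR15A and LTI30, and none of the 3 passed. The arrays did not overlap in 9111 of the 16814 tested probe sets. LEA4-5, a late embryogenesis abundant protein, AT3G02480 and AT3G17520 did not pass either, with changes of 0.15, 0.23 and 0.63. A p that misses the threshold does not show that their levels were equal. PUB19, a ubiquitin ligase of ABA signalling and the 1 gene tested of 22 for that list, had 856 and 616 at 24 h, against 786 and 645 at 12 h.

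Of 6 heat shock genes tested of 19 listed, 3 rose, 0 fell and 3 did not pass, against 5.59% higher and 9.71% lower over all probe sets, with a median change of 1.46 against -0.06 over all. AT5G48570, which the RefSeq table also gives as FKBP65, had 351 and 493 at 24 h, against 88.3 and 81.6 at 12 h, and rose by 2.19 ± 0.42 (adjusted p = 0.00166, limma). AT1G53540 had 218 and 90.3 at 24 h, against 45.2 and 29.2 at 12 h, and AT2G29500 had 119 and 95.1 at 24 h, against 24.8 and 30.03 at 12 h. These 2 rises, of 1.74 and 1.698, sat at the edge of the test (adjusted p = 0.0455 and 0.0495, limma), and with 1 array left out the adjusted p ranged between 0.0255 and 0.358 for AT1G53540 and between 0.0918 and 0.216 for AT2G29500. Under quantile normalization 1 of the 6 passed. AT5G37670 and AT1G52560 did not pass, with changes of 1.23 and 0.95 (AT1G52560 passed without the second 24 h array, at 1.45 with an adjusted p of 0.0244, limma), and ATHSP22.0 stood at 140.2 and 60.4 at 24 h, against 138 and 113 at 12 h.

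Among 5 tested of 18 genes of carbon starvation 1 rose and 0 fell, against 5.59% higher and 9.71% lower over all probe sets. IVD, an enzyme of leucine breakdown in mitochondria, had 397 and 372 at 24 h, against 189 and 199 at 12 h, and rose by 0.96 ± 0.24 (adjusted p = 0.0109, limma). It did not pass without the first 12 h array (adjusted p = 0.068) or the first 24 h array (adjusted p = 0.0782, limma). MCCA, a subunit of methylcrotonyl-CoA carboxylase in the same pathway, had 512 and 436 at 24 h, against 225 and 250.5 at 12 h, with an adjusted p of 0.0576. MCCA passed with arrays at a common median (1.12, adjusted p = 0.0399) and with the 4 arrays alone (adjusted p = 0.0309, limma). Its partner MCCB had 176 and 255 at 24 h, against 208 and 252 at 12 h. The 9 ATG8 genes of autophagy encode ubiquitin-like proteins of the autophagosome membrane. By 6 h 8 of them were raised against 0.5 h, where 22.8% of all probe sets were higher. From 12 h on, APG8A rose, with 816 and 877 at 24 h, against 511 and 605 at 12 h (a change of 0.598, adjusted p = 0.0155, limma), and ATG8D fell, with 103 and 106 at 24 h, against 191 and 165 at 12 h (a change of -0.72, adjusted p = 0.011). The other 7 did not pass, where 5.59% of all probe sets were higher and 9.71% lower. The APG8A change was 0.48 without the first 12 h array, where its adjusted p was 0.147, and that of ATG8D was -0.62, with an adjusted p of 0.101; both also lost the call without the first 24 h array (adjusted p = 0.0566 and 0.0744, limma), and APG8A without the other 24 h array (adjusted p = 0.0764).

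Among genes of growth, ribosomal protein genes held the most falls by count, being the longest of these lists. As a share, their falls (18 of 34) were near those of beta-tubulins (3 of 5) and GH9 endoglucanases (4 of 8), described below. Of 34 tested genes of 62 for cytosolic ribosomal proteins, 0 rose, 18 fell and 16 did not pass, against 9.71% lower over all probe sets. All 34 changes were below 0, with a median of -0.48 against -0.06 over all probe sets. Already lower at 6 h than at 0.5 h were 31 of the 34, against 25.4% of all probe sets. The largest fall was that of AT2G19730, with 283 and 264 at 24 h, against 560.4 and 523 at 12 h and 1452 and 1175 at 0.5 h, a change of -0.97 ± 0.13 (adjusted p = 6.83e-05, limma). AT1G77940 had 349 and 319 at 24 h, against 583 and 573 at 12 h, a change of -0.78. The count moved with the setting: 9 fell with arrays at a common median (median change -0.34), 20 under quantile normalization, 16 with shoot arrays alone, and with 1 array left out between 6 (without the first 12 h array) and 13, with 9 without the first 24 h array. With the 4 arrays alone 2 fell. Genes for ribosomal proteins have near-identical copies whose probe sets can share signal.

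Cell wall genes were described by family. Of 14 tested expansins of 23, proteins that loosen the wall so that cells can expand, 0 rose and 4 fell, against 5.59% higher and 9.71% lower over all probe sets, with a median change of -0.45. EXPA4 had 29.5 and 51.3 at 24 h, against 224 and 149.8 at 12 h, a change of -2.02 ± 0.27 (adjusted p = 6.65e-05, limma). EXPA16 had 118 and 260.3 at 24 h, against 681 and 574 at 12 h, a change of -1.78 ± 0.32. EXPA16 was a transient gene, at 27.5 and 19.1 at 0.5 h and 926 and 834 at 6 h. EXPB3 and EXPB1 fell by 1.05 and 0.98, and neither passed without the first 12 h array (adjusted p = 0.176 and 0.0674) or the first 24 h array (adjusted p = 0.135 and 0.161, limma); EXPB1 also lost the call without the second 12 h array (adjusted p = 0.0671). Of 6 xyloglucan endotransglucosylases tested of 22, enzymes that cut and rejoin wall xyloglucan, EXGT-A3 rose, with 1156 and 824 at 24 h, against 518 and 565 at 12 h (a change of 0.84, adjusted p = 0.00127, limma), and 5 did not pass. XTH16 was lower without the second 24 h array (-0.91, adjusted p = 0.0493, limma).

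Families read from gene symbols were chosen after their values were seen, and no family was tested as a set. Over all probe sets 5.59% were higher and 9.71% lower at 24 h. Of 8 tested GH9 endoglucanases, which trim cellulose, 4 fell and 0 rose: beside GH9C2, GH9B8 had 10.9 and 11.7 at 24 h, against 36.1 and 34.3 at 12 h, a change of -1.16. The falls of GH9B7 and GH9B13, by 0.68 and 0.93, did not hold when single arrays were left out (adjusted p up to 0.179 and 0.195, limma). Of 5 tested beta-tubulins, the building blocks of microtubules, 3 fell and 0 rose. TUB5 had 12.8 and 15.6 at 24 h, against 76.5 and 50.7 at 12 h, a change of -1.67 ± 0.27; TUB6 changed by -0.901 and TUB9 by -0.79. All 3 of these calls held when any single array of the 2 times was left out. PME61, a pectin methylesterase, had 18.1 and 29.1 at 24 h, against 67.8 and 69.2 at 12 h, a change of -1.297 that did not pass without the first 24 h array (-1.04, adjusted p = 0.0646, limma).

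Of 10 tested SWEET sugar transporters, 3 were higher and 1 was lower at 24 h, against 5.59% higher and 9.71% lower over all probe sets, so the share that was lower was near that of all. SWEET2, a transporter of the vacuole membrane, had 154 and 166 at 24 h, against 27.8 and 59.6 at 12 h, a rise of 1.77 ± 0.24 (adjusted p = 7.6e-05, limma). SWEET13, a sucrose transporter of the cell membrane, had 107 and 121 at 24 h, against 36.8 and 32.4 at 12 h, a rise of 1.52 ± 0.29. SWEET1, a glucose transporter, went the other way, with 503 and 464 at 24 h, against 1401 and 1028 at 12 h, a change of -1.3 ± 0.16 (adjusted p = 3e-05, limma), and 12 h was its peak. SWEET17 rose by 0.53, which did not pass without the second 12 h array (0.37, adjusted p = 0.138) or the first 24 h array (0.51, adjusted p = 0.0769, limma). SWEET11 and SAG29, the pair tested on the sugar list, did not pass. SWEET11 had 1215 and 1306 at 24 h, against 994 and 913 at 12 h, and it passed with arrays at a common median (0.55, adjusted p = 0.0108), with a pseudocount of 32 (0.39, adjusted p = 0.0155) and with shoot arrays alone (adjusted p = 0.0414, limma). SAG29, also named SWEET15 in the RefSeq table, had 3858 and 3817 at 24 h, against 2742 and 2104 at 12 h. The mean of SAG29 was higher at each sampling after 0.5 h.

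Other families are set against the same shares of all probe sets, 5.59% higher and 9.71% lower. Of 14 cytochromes P450, 3 rose (CYP71B26, CYP78A9 by 1.05 and CYP71B29 by 0.88) and 0 fell, 7 being higher with arrays at a common median. The CYP78A9 call was lost without the second 12 h array (0.96, adjusted p = 0.0626, limma). Of 37 UDP-glycosyltransferases 2 rose and 2 fell, not above the shares of all probe sets, of 21 serine carboxypeptidase-like genes 1 rose and 5 fell, and of 5 defensins 2 fell, PDF1.2 and PDF1.2b. These are near-identical genes whose probe sets may share signal, and 0 defensins passed without the second 12 h array or the first 24 h array. With 1 array left out, the counts were 1 to 3 higher and 1 to 3 lower for the glycosyltransferases and 0 to 1 higher and 3 to 5 lower for the carboxypeptidase-like genes. BGLU44 was the larger of 2 falls among 13 beta-glucosidases, with 56.9 and 107 at 24 h, against 228 and 291 at 12 h, and 1276 and 1485 at 6 h. Among 8 PUB ubiquitin ligases 2 rose, PUB25 by 0.79 and PUB26 by 0.74, the PUB26 call being lost when any 1 of the 4 arrays was left out. Of 16 trichome birefringence-like genes TBL26 fell, by 0.92, a call lost without the first 24 h array (adjusted p = 0.0902) or the second 12 h array (adjusted p = 0.0704, limma), and of 10 tau glutathione transferases and 5 WRKY factors 0 passed. GSTU20 was lower without the second 24 h array, at -2.09 (adjusted p = 0.0055, limma) against -1.31 with all arrays, and 1 tau glutathione transferase was higher with arrays at a common median. Without single arrays BGLU45, BGLU46, PUB23, TBL36 and TBL45 also passed, each under 1 removal. With all arrays no member passed on the lists of phenylpropanoids and flavonoids (0 of 3 tested of 20), glucosinolates (0 of 3 of 13), auxin response (0 of 4 of 15), cytokinin response (0 of 2 of 9), cell division (0 of 2 of 12), proline (0 of 1 of 8), sugars (0 of 2 of 18), and cold and drought regulators (0 of 1 of 13). The 5 tested reference genes did not pass either, with changes between -0.24 and 0.29.

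**Figure D4:**
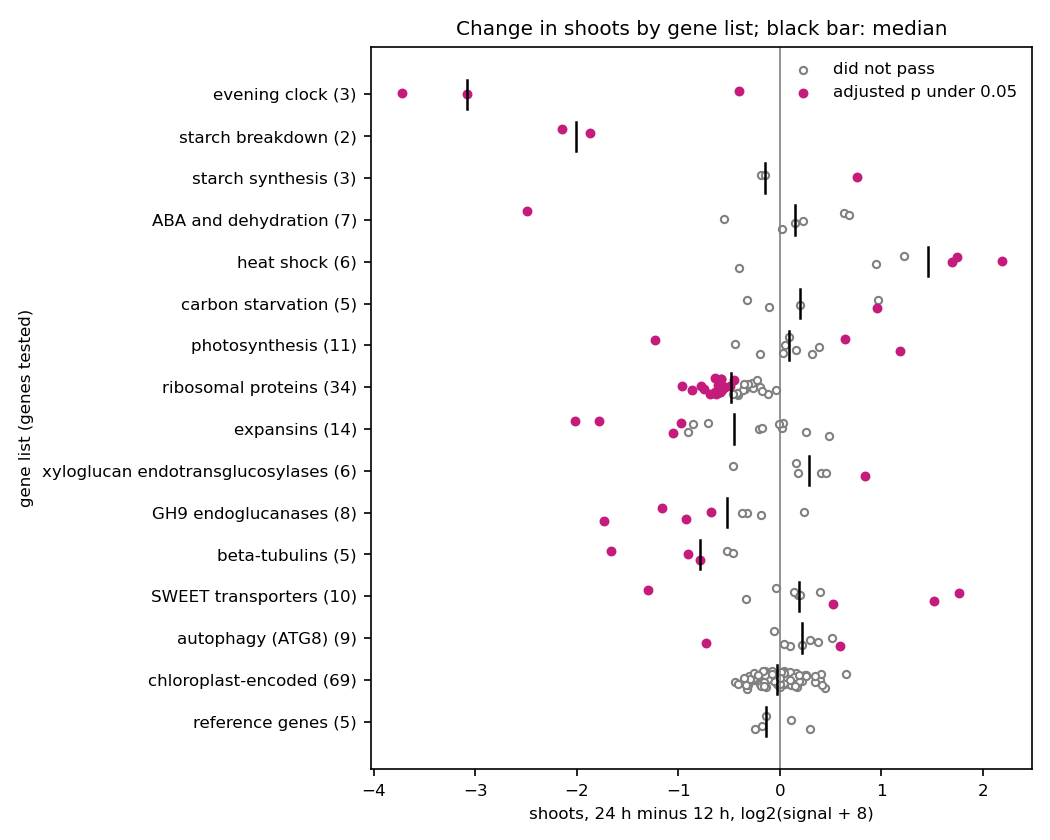
Each point is a tested gene and the horizontal axis is its 24 h minus 12 h change in shoots in log2(signal + 8); filled points passed an adjusted p of 0.05, open points did not, and black bars are list medians. The 34 ribosomal protein genes all lie below 0 with a median of -0.48, while the 69 chloroplast-encoded genes lie around -0.02.

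The shoot change was set against the root change over the same 12 h by an interaction term, and 597 probe sets (3.55%) passed, 223 (1.33%) with the shoot change above the root change and 374 (2.22%) below. With arrays at a common median these were 322 and 242. Among the largest differences above were AT2G15020, at 4.72 in log2, BSMT1 at 4.02, AT5G35970 at 2.85, AT2G41250 at 2.57 and AT5G04380 at 2.43. Root arrays read 3.97 and 0.863 for BSMT1 at 24 h, against 4.69 and 1.78 at 12 h. The AT5G04380 difference did not pass without the first 24 h shoot array (1.91, adjusted p = 0.0619, limma). Among the largest differences below was AT4G21650, which had opposite signs in the tissues: its shoots had 107 and 58.3 at 24 h, against 256 and 223 at 12 h. Its roots had 192 and 137 at 24 h, against 36.6 and 31.95 at 12 h. The others were AT5G62720, AT4G16146, AT4G32340 and AT4G34950, between -2.98 and -2.67; that of AT4G34950 was lost when any 1 of 6 of the arrays was left out (adjusted p up to 0.169).

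COR27 fell in both tissues and more in shoots, at 17.97 and 28.2 in roots at 24 h, against 87.3 and 129 at 12 h, with a difference of -1.83 ± 0.36 (adjusted p = 0.00705, limma). GI fell in shoots and rose in roots, where it had 277 and 239 at 24 h, against 143 and 157 at 12 h, and the difference was -1.15 ± 0.18 (adjusted p = 0.00148, limma). The starch genes also differed: DPE1 had 46.4 and 46.2 in roots at 24 h, against 63.0 and 52.9 at 12 h, a difference of -1.87 ± 0.22 (adjusted p = 9.59e-05, limma), and PWD had a difference of -1.45 ± 0.21 (adjusted p = 0.000591). PME61 fell in shoots and rose in roots, with 113 and 66.7 at 24 h, against 29.1 and 29.02 at 12 h there (difference -2.65, adjusted p = 0.000655, limma). Not everything differed. CYP71B26 rose in both tissues, with 219 and 164 in roots at 24 h, against 53.1 and 51.6 at 12 h, and the difference of the changes was -0.06 ± 0.26 (adjusted p = 0.944, limma). SWEET13 rose in both as well, with 493 and 503 in roots at 24 h, against 107 and 91.1 at 12 h. Its difference of -0.72 ± 0.41 did not pass. Among the 34 ribosomal protein genes 0 passed in roots, where 1.59% of all probe sets did and where their median change was -0.19. The test of the difference between tissues was passed by 0 of them, against 3.55% of all probe sets.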

How the data were processed

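The authors deposited one linear signal intensity per probe set and array, computed with MAS5 per the submitters' processing notes; no version or scaling target is given in the sources used here. The 64 control probe sets were left out. From these intensities log2(signal + 8) was taken, which understates changes of weak genes. A probe set was tested where at least 2 of 24 arrays had it over that array's 40th percentile, which kept 16814 and left out 5932. All 24 arrays entered one fit of 12 group means with a variance trend (limma 3.58.1, R 4.3.3), on 12 residual degrees of freedom. Benjamini-Hochberg adjustment ran over every tested probe set, with 0.05 as the threshold. Signals are given for each array, and SE is limma's. Precision is limited by how few arrays there were.

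Of 22810 probe sets, the annotation named 1 gene for 13513, several for 503 and none for 8730. Of the 13513, 13436 matched the TAIR10.1 RefSeq gene table. Of the tested ones 9206 named 1 gene. The 30 gene lists, matched by locus, held 504 genes, of which 131 were named here and 130 tested; AT1G36240 was named but not tested. The lists of nitrogen assimilation, aquaporins, jasmonate and antioxidant enzymes had no tested gene. A gene was represented by its brightest probe set. The members and lists were chosen with earlier results of these data known. The rule for naming took, from single-gene probe sets that passed and whose arrays did not overlap, the 15 largest rises and falls. The 5 largest each way were also taken for genes that were higher, lower or unmoved at 6 h against 0.5 h. The 5 largest differences between tissues each way and any list member could also be named. Families were formed by symbol after their values were seen, and symbols of other proteins that share a prefix (peptide deformylases, cyclophilins) were left out. PWD is a symbol of 2 loci in the table, and AT5G26570 is meant here. No sequence was used here. Alternatives were the pseudocount, the normalization, the filter, the variance trend, the arrays in the fit, a replicate block and leaving out each array.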

Additional observations from a re-analysis of the deposited data

Results flagged for a closer look

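Of the 46 genes named by the rule, 36 are listed here because their change between 12 h and 24 h differed between shoots and roots by the interaction term (limma, adjusted p under the threshold over all tested probe sets). The rule picked the 46 for large shoot changes or for this difference itself, on the same arrays. Their share is therefore high by choice, against 3.55% of all tested probe sets (597 of 16814). Values are the shoot change minus the root change in log2(signal + 8). In 23 genes the shoot change lay below the root change. It was -3.51 for AT4G21650, -2.98 for AT5G62720, -2.83 for AT4G16146, -2.67 for AT4G32340, -2.67 for AT4G34950 and -2.61 for AT1G11210. Next came -2.54 for AT4G30650, -2.43 for COR15B, -2.405 for scpl35, -2.38 for AT2G43550, -2.30 for CHL and -2.06 for MAP1C. Smaller differences were -2.03 for AT1G51090, -2.02 for AT5G66530, -1.84 for AT5G02160, -1.83 for COR27, -1.73 for AT1G04680 and -1.62 for AT3G22210. Then followed -1.56 for AT4G24780, -1.55 for AT3G23760, -1.46 for AT2G23910, -1.40 for GH9C2 and -1.35 for AT4G33980.

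In 13 genes the shoot change lay above the root change. It was 4.72 for AT2G15020, 4.02 for BSMT1, 2.85 for AT5G35970, 2.57 for AT2G41250, 2.43 for AT5G04380 and 2.397 for AT1G64500. Next came 2.34 for AFR, 2.28 for AT3G01060, 2.26 for AT2G17680, 2.04 for AT3G03620, 1.86 for AT5G22390 and 1.79 for AT1G66130. The smallest was 1.76 for AT3G15310. The call held in 23 of the 36 genes when any 1 of the 8 arrays was left out. It was lost under at least 1 removal in the other 13: AT3G03620, AT5G04380, AT5G22390, AT2G23910, AT4G33980, AT4G34950, AT1G51090, COR15B, AT4G24780, AT1G04680, AT3G23760, AT3G22210 and GH9C2. Groups of 2 arrays are too small for a search for single outlying samples, and every sample was used.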

How the results depend on the processing

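For shoots 24 h minus 12 h, leaving out 1 array gave 1258 to 2466 calls (533 to 866 higher, 725 to 1600 lower), and the 4 arrays alone gave 742 (326 higher, 416 lower). Median scaling gave 1487 higher and 1021 lower. For roots 24 h minus 12 h, leaving out 1 array gave 127 to 198 calls (76 to 140 higher, 49 to 67 lower), and the 4 root arrays alone 144 (94 higher, 50 lower). For the shoot minus root change, leaving out 1 array gave 303 to 736 calls (128 to 243 higher, 173 to 493 lower), and median scaling gave 242 lower and 322 higher. Shoots 6 h minus 0.5 h gave 6516 to 8145 calls under all alternatives, against 8094. Why the counts moved under scaling was not tested; fits without an array have fewer degrees of freedom.

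Of the 46 genes named by the rule, 36 kept their direction and their side of the threshold under every alternative that tested them, and none reversed; 1 was not tested with the filter at the 60th percentile. With the 4 arrays alone 9 did not pass, and without the first 24 h array 4 did not. Replicate numbers are shared between groups, and correlations of the deviations of same-numbered arrays ran between -0.165 and 0.349 over pairs of groups. The highest, 0.349, was that of shoots at 24 h with shoots at 12 h, the groups compared here, so same-numbered arrays of these did deviate together; for roots at these times it was -0.0367. Since not every pair exceeded 0.1 and nothing in the labels ties the numbers, they were not taken to pair the samples. With the replicate number as a block within tissue, 2705 probe sets passed in shoots (995 higher, 1710 lower), 286 in roots and 615 for the difference between tissues, and 46 of the 46 named genes still passed. Under this block SWEET11 (0.4, adjusted p = 0.0457) and MCCA (0.97, adjusted p = 0.0426, limma) also passed, which they did not without it.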
